A study of Mus musculus with 10 samples.

Results

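The 8 genes described here, Slc1a3, Glul, Kcnj10, Aqp4, Gfap, Vim, S100b and Apoe, mark the glia of the retina and optic nerve. They were taken by gene name from the deposited table of 26360 genes, and all 8 were listed. All 8 also passed the filter on low values (at least 1 CPM, reads scaled to a fixed library total, averaged over the 10 libraries), as did 15414 genes in all. The libraries came from the posterior eye wall of 5 wild-type C57BL/6J mice, which the labels call RPE (retinal pigment epithelium), choroid and sclera, and each animal gave 1 library per eye (n = 5 left and 5 right). In each mouse a goggle with a -20 D lens, which induces myopia, was fitted over 1 eye on postnatal day 24 under ketamine and xylazine, and tissue of both eyes was taken on postnatal day 34 after 10 days of wear. Every animal therefore shares the anaesthesia and the goggle on 1 side, and the other eye of the same animal is the only control. The labels do not say which side had the lens, so the sides carry no treatment meaning.

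Glia are the supporting cells of nerve tissue. Müller glia span the retina, take up the glutamate that neurons release, convert it to glutamine, and carry off potassium and water. Astrocytes line the ganglion cell axons and fill the optic nerve head, where those axons leave the eye through the sclera, and oligodendrocytes myelinate the axons behind it. The posterior eye wall without its retina should hold few of these cells, but several of the 8 genes are also made elsewhere: Vim in fibroblasts and endothelium, Apoe in pigment epithelium and macrophages, S100b in Schwann cells and melanocytes, Aqp4 in fast skeletal muscle. In such bulk tissue, fewer cells of a type and less RNA per cell cannot be told apart.

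Library totals inferred from the step size of low values lay between 66.9 M and 94.2 M reads, where M stands for mega. On this scale 3 reads were worth 0.0318 to 0.0448 CPM. The labelled tissue was seen in the pigment epithelium list (led by Rgr and Ttr) and the scleral fibroblast list (led by Col1a2 and Col1a1), which summed to 4869 to 6735 CPM over 10 genes and 7404 to 10761 CPM over 8 genes. Rod photoreceptor transcripts were present in every library. The 10 rod genes summed to 225 to 880 CPM on the left and 149.6 to 1847 CPM on the right, highest in the right eye of animal 68.

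The 8 genes divided by how much they varied. Glul, Apoe, Vim and S100b were within 1.26-fold, 1.45-fold, 1.29-fold and 1.36-fold between their lowest and highest libraries. Kcnj10, Aqp4 and Slc1a3 spanned 3.03-fold, 3.91-fold and 6.83-fold, and Gfap spanned 138-fold. In limma, none of the 8 passed an adjusted p of 0.05 between right and left eyes or between animals. For each of the 8 genes the left eye was higher in some animals and the right eye in others.

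**Figure D1:**
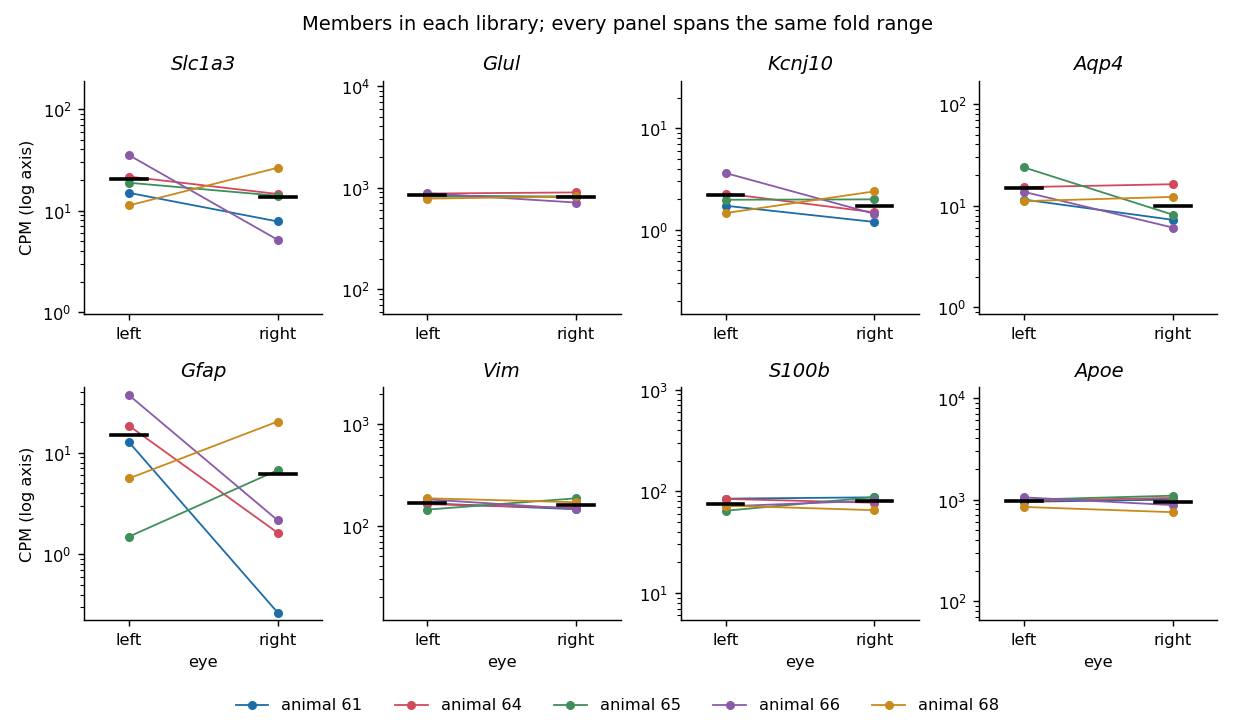
Level of each gene (CPM, log axis, the same fold range in every panel) in the left and right eye of each animal (points joined by a line, 1 colour per animal), with the mean of each side as a black bar. Gfap runs from 0.266 to 36.9 CPM and its lines cross, while Glul stays between 712 and 897 CPM.

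Levels between genes were compared per kb of annotated exon sequence (all exons of a gene merged, GENCODE M21), which only approximates the transcripts present. Apoe stood highest, at 448 ± 48.7 CPM per kb (SD, n = 10 libraries of 5 animals), followed by Glul at 248 ± 16.2 CPM per kb. S100b came next at 52.2 ± 5.94 CPM per kb, and Vim at 34.6 ± 3.60 CPM per kb. The ranges of these 4 genes did not overlap with their neighbours in the order. Gfap (2.52 ± 2.77 CPM per kb), Aqp4 (2.01 ± 0.831 CPM per kb) and Slc1a3 (1.99 ± 1.05 CPM per kb) differed by less than their spread. Kcnj10 was lowest at 0.363 ± 0.130 CPM per kb, and its highest library (0.672 CPM per kb) overlapped the lowest of Slc1a3 (0.603 CPM per kb).

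Gfap encodes glial fibrillary acidic protein, the intermediate filament of astrocytes, which Müller glia also make after injury (chr11:102887336-102900912, minus strand, GRCm38, protein-coding). In left eyes it was at 12.7 CPM in animal 61, 18.4 in animal 64, 1.49 in animal 65, 36.9 in animal 66 and 5.58 in animal 68. In the right eyes of the same animals it was at 0.266, 1.63, 6.74, 2.16 and 20.3 CPM. The left eye was higher in animals 61, 64 and 66 and the right eye in animals 65 and 68, and the sides overlapped. The lowest value corresponds to 20 implied reads in the right eye of animal 61, against 941 in its left eye. The left-to-right ratio was 47.8 in animal 61, 11.3 in animal 64 and 17.1 in animal 66, while the right-to-left ratio was 4.51 in animal 65 and 3.63 in animal 68. The side means were 15.0 ± 13.8 CPM (left) and 6.22 ± 8.23 CPM (right, SD, n = 5 each). The log2 difference was -1.63 ± 1.09 (SE), with a 95% interval from -4.19 to 0.92 and a limma adjusted p of 0.9998. On a linear scale that interval runs from 0.0549-fold to 1.90-fold. The estimate was -0.86 without animal 61, -1.05 without animal 66, -2.54 without animal 65 and -2.49 without animal 68.

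The spread of Gfap was among the widest in the table. Its standard deviation over the 10 libraries on the log2 scale was 1.96, against a median of 0.16 over all 15414 genes tested. Only 8 tested genes had a larger one, of which 5 were Xist or Y-linked genes, which separate male from female animals. Slc1a3 (0.80), Aqp4 (0.58) and Kcnj10 (0.42) exceeded 97.9%, 95.7% and 92.5% of tested genes. S100b (0.17), Apoe (0.16) and Vim (0.15) lay near the median, and Glul (0.10) exceeded 17.6% of tested genes.

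**Figure D2:**
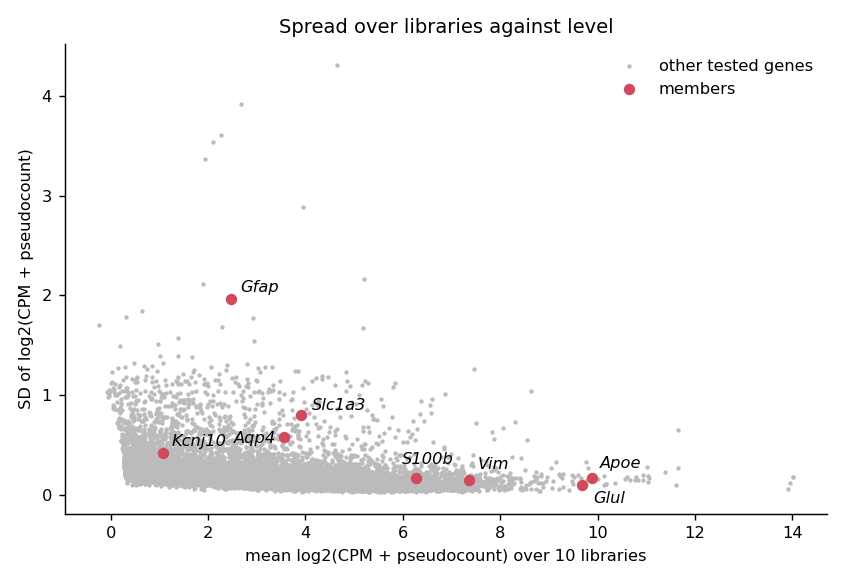
Standard deviation over 10 libraries against mean level, both of log2(CPM + pseudocount), for the 15414 tested genes (grey) and the 8 glial genes (red). Gfap lies far above the bulk of genes at its level, with an SD of 1.96, and Glul lies low at 0.10.

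The genes whose pattern over the 10 libraries was most like that of Gfap were genes of neurons and axons. Pearson's r of log2 values was 0.99 for Unc13c, a synaptic vesicle priming factor, 0.98 for Kif5a, a kinesin motor of axonal transport, and 0.97 for Sptbn4, a spectrin of axon initial segments and nodes of Ranvier. Kif5a was at 105 CPM in the left and 3.06 CPM in the right eye of animal 61. In animal 66 it was at 241 CPM in the left and 10.6 CPM in the right eye. In animals 65 and 68 Kif5a was higher in the right eye (59.0 against 5.79 CPM and 158 against 44.1 CPM). Unc13c ranged from 5.19 to 152 CPM and Sptbn4 from 0.146 to 7.76 CPM. Like Gfap, all 3 genes were highest in the left eye of animal 66 and lowest in the right eye of animal 61. Without the 2 libraries farthest from the median of Gfap, r was 0.98 for Unc13c, 0.98 for Kif5a and 0.95 for Sptbn4. With so few libraries most genes have a close match: the best r of a gene had a median of 0.94 over all tested genes, and that of Gfap exceeded the best r of 97.6% of them. No p is given for any of these correlations, because the 10 libraries come from 5 animals and share their scaling to a library total.

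**Figure D3:**
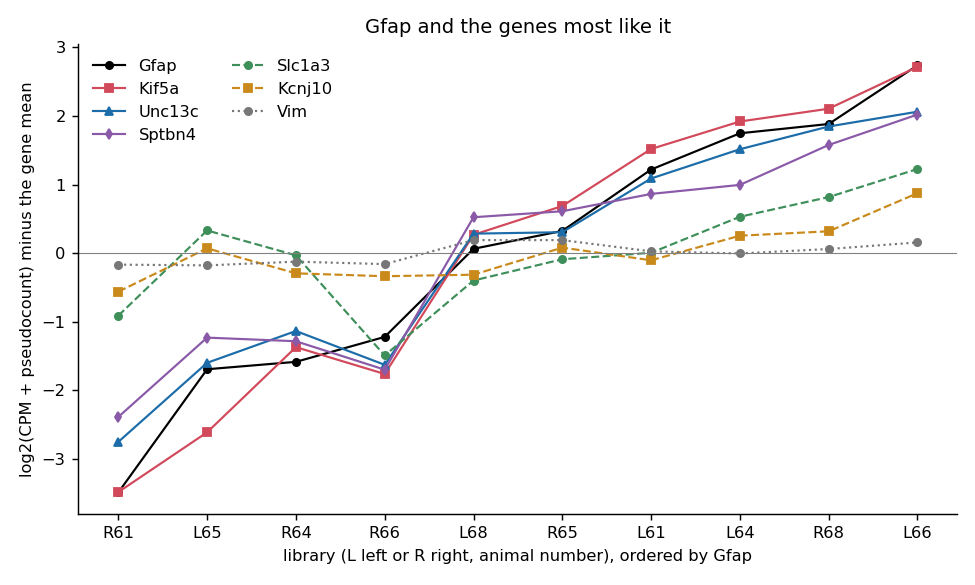
Log2 level minus the gene's own mean (vertical axis) in the 10 libraries ordered by Gfap (horizontal axis) for Gfap, its 3 most similar genes (solid lines), Slc1a3 and Kcnj10 (dashed) and Vim (dotted). Kif5a, Unc13c and Sptbn4 follow Gfap over its whole range, while Slc1a3, Kcnj10 and Vim follow it in part and with a smaller span.

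Vim encodes vimentin, the intermediate filament of mesenchymal cells and of Müller glia and astrocytes (chr2:13573927-13582826, plus strand). It was at 144 to 187 CPM in left eyes (median 166 CPM) and 146 to 187 CPM in right eyes (median 150.0 CPM). It was lower in the right eye in 4 of 5 animals, and the sides overlapped (168.5 ± 16.8 CPM left and 160 ± 18.1 CPM right, SD, n = 5 each). The log2 difference was -0.08 ± 0.10 (SE), with a 95% interval from -0.30 to 0.15 (limma adjusted p = 0.9998). Per kb, Gfap came to 22.8% of Vim in the left eye of animal 66 and 0.206% in the right eye of animal 61. This ratio within a library does not depend on the scaling between libraries. Over the libraries Vim ran with Gfap (r = 0.72) with a far smaller span. Without the 2 libraries farthest from the median of Gfap, r was 0.60. In animal 68 the directions were opposite, with Gfap higher and Vim lower in the right eye. Its closest genes were Cldnd1 (r = 0.93), Ndufs3 (r = 0.91) and Hs3st3a1 (r = 0.90), and only 36.0% of tested genes had a lower best r than Vim.

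Slc1a3 encodes GLAST, the glutamate transporter of Müller glia and astrocytes (chr15:8634124-8710764, minus strand). In left eyes it was at 15.0 CPM in animal 61, 21.6 in animal 64, 18.8 in animal 65, 35.2 in animal 66 and 11.2 in animal 68. In the right eyes of the same animals it was at 7.81, 14.6, 13.99, 5.15 and 26.4 CPM. It was lower in the right eye in 4 of 5 animals, by 6.83-fold in animal 66, and higher in animal 68, and the sides overlapped. The side means were 20.4 ± 9.16 CPM (left) and 13.6 ± 8.22 CPM (right, SD, n = 5 each). The log2 difference was -0.68 ± 0.47 (SE), with a 95% interval from -1.78 to 0.42 (limma adjusted p = 0.9998). Leaving out animal 66 gave -0.17 ± 0.33, and leaving out animal 68 gave -1.15. The predicted gene Gm37310 overlaps Slc1a3 on the same strand at 0.480 to 1.67 CPM, and how shared reads were counted was not stated.

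Slc1a3 was most like Mlc1 (r = 0.96), a membrane protein of glial endfeet, Lrrtm2 (r = 0.95), a synaptic adhesion protein, and Kcnq3 (r = 0.94), a neuronal potassium channel. Of the tested genes, 71.6% had a lower best r than Slc1a3. Mlc1 was at 9.19 CPM in the left eye of animal 66 and 0.742 CPM in the right, the highest and lowest libraries of Slc1a3 too. Slc1a3 also ran with the mean of the inner retinal neuron list (r = 0.84) and with the rod list (r = 0.70), whereas Gfap did so less closely (r = 0.39 and 0.35). Of the inner retinal neuron list only 6 of 12 genes passed the filter on low values, so its mean does not stand for the whole list. Among the 14 marker lists, Gfap (r = 0.68) and Kcnj10 (r = 0.83) were closest to the mean of the oligodendrocyte list, of which 6 genes were tested. Slc1a3 had an r of 0.67 with that list. The right eye of animal 68, with the highest rod sum of 1847 CPM, was second highest for both Slc1a3 and Gfap. The left eye of animal 65, with the second highest rod sum of 880 CPM, was second lowest for Gfap at 1.49 CPM. The part of retinal tissue in these values was not tested.

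Kcnj10 encodes Kir4.1, the inward rectifier through which Müller glia pass potassium (chr1:172341210-172374085, plus strand). Its left-eye values were 1.73 CPM in animal 61, 2.28 in animal 64, 1.98 in animal 65, 3.63 in animal 66 and 1.47 in animal 68. Its right-eye values were 1.198, 1.49, 1.999, 1.44 and 2.40 CPM. The left eye was higher in animals 61, 64 and 66, the right eye in animal 68, the eyes of animal 65 were within 1.01-fold, and the sides overlapped. The side means were 2.22 ± 0.846 CPM (left) and 1.70 ± 0.485 CPM (right, SD, n = 5 each), and the log2 difference was -0.31 ± 0.25 (SE), with a 95% interval from -0.90 to 0.27 (limma adjusted p = 0.9998). It was -0.09 without animal 66 and -0.55 without animal 68. Kcnj10 was most like Gpr37l1, an astrocyte receptor (r = 0.95), Glcci1 (r = 0.92) and Rgs2, a regulator of G protein signalling (r = 0.92). Only 59.3% of tested genes had a lower best r than Kcnj10. Among the 8 genes Kcnj10 was closest to Slc1a3 (r = 0.87) and Gfap (r = 0.82). Without the 2 libraries farthest from its median, r with Gfap was 0.64.

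Gfap, Slc1a3 and Kcnj10 thus moved together over the libraries (r = 0.72 to 0.87). Glul with Slc1a3 (r = 0.75) and Vim with Gfap (r = 0.72) reached such values too. The part of shared regulation in this was not tested. For Gfap, Slc1a3 and Kcnj10 the 250 bases before the RefSeq start (GRCm38.p6) are shown, 5′ to 3′ on the strand of the gene. None of these windows overlaps an exon of a listed gene in GENCODE M21. Capitals mark matches to any of 5 motifs, each searched on both strands. The TATA box was searched as TATAAA. The site of STAT factors, which carry cytokine signals to the nucleus, was searched as TTCNNNGAA. The site of AP-1, a stress-activated factor, was searched as TGANTCA. The SOX site was searched as ACAAAG, and nuclear factor I by its full palindrome.
Gfap (chr11:102897201-102897450, minus strand): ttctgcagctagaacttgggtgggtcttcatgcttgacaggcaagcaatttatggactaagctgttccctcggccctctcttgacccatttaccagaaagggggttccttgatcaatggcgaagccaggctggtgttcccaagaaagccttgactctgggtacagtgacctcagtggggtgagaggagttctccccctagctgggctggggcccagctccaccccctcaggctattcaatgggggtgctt
Slc1a3 (chr15:8710808-8711057, minus strand): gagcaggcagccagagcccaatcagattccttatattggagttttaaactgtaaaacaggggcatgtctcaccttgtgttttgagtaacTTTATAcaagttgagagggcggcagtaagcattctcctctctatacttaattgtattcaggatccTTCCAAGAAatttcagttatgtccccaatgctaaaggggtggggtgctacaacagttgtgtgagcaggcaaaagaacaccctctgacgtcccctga
Kcnj10 (chr1:172340960-172341209, plus strand): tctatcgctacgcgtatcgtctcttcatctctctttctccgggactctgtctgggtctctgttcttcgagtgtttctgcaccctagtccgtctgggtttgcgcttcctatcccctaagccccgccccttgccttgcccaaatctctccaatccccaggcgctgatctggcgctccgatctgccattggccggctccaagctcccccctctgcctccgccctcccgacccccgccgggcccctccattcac
The Slc1a3 window held a TATA box match, in reverse orientation, and a STAT match, which did not overlap. Those letters occur in 12.4% and 7.01% of 32817 windows of the same length. The AP-1, SOX and nuclear factor I letters, found in 6.75%, 16.5% and 0.0366% of windows, were not in these 3. None of the 5 motifs was found in the Gfap or Kcnj10 window, so that the 3 windows shared none of them. GC content was 55.6% for Gfap, 44.8% for Slc1a3 and 62.0% for Kcnj10.

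Aqp4 encodes aquaporin-4, the water channel of glial endfeet and of fast muscle fibres (chr18:15389496-15410982, minus strand). In left eyes it was at 11.5 CPM in animal 61, 15.2 in animal 64, 23.8 in animal 65, 13.7 in animal 66 and 11.1 in animal 68. In the right eyes it was at 7.26, 16.3, 8.15, 6.09 and 12.2 CPM. It was lower in the right eye in animals 61, 65 and 66 and within 1.11-fold in animals 64 and 68, and the sides overlapped. The side means were 15.1 ± 5.17 CPM (left) and 9.99 ± 4.19 CPM (right, SD, n = 5 each). Its log2 difference, -0.61 ± 0.25 (SE, with a 95% interval of 0.435-fold to 0.980-fold on a linear scale), did not pass (limma adjusted p = 0.9998). No other of the 8 genes had an unadjusted p under 0.05, and that of Aqp4 was 0.0418 in limma. Without animal 65 the log2 difference of Aqp4 was -0.39 ± 0.23 (SE).

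Aqp4 shared little of the pattern of Gfap (r = 0.21), and its highest library, the left eye of animal 65, was the second lowest of Gfap. Without the 2 libraries farthest from the median of Aqp4, r with Gfap was 0.49. Aqp4 was most like Sema3e, a guidance ligand (r = 0.97), Col9a2, a collagen chain (r = 0.94), and Vcan, a large proteoglycan (r = 0.93). Vcan reached 132 CPM in the left eye of animal 65 against 20.4 to 65.3 CPM in the other libraries, and Sema3e reached 5.47 CPM there. Aqp4 ran with the inner retinal neuron list (r = 0.78, 6 of 12 genes tested) and the Müller glia list (r = 0.77, 8 of 10 tested). It ran against the pigment epithelium list (r = -0.85) and the fibroblast list (r = -0.84). With the skeletal muscle list it had an r of -0.03. That list was led by Ttn and Myh4, and its sum ranged from 1908 to 8895 CPM. Because CPM are shares, a library with more of one tissue holds less of the others, and the part of tissue makeup in these values was not tested.

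Glul encodes glutamine synthetase, which Müller glia use to detoxify glutamate and which many other cells also make (chr1:153899944-153909723, plus strand). It was at 779 to 881 CPM in left eyes (median 837 CPM) and 712 to 897 CPM in right eyes (median 818 CPM). The right eye was higher in 3 of 5 animals, and the sides overlapped (837 ± 42.3 CPM left and 810.4 ± 65.5 CPM right, SD, n = 5 each). The log2 difference was -0.05 ± 0.07 (SE), and its 95% interval of 0.860-fold to 1.09-fold was the narrowest of the 8 (limma adjusted p = 0.9998). Glul was most like Whrn, a scaffold protein of photoreceptors and hair cells (r = 0.98), Limk2, a kinase of actin turnover (r = 0.96), and Atp7b, a copper pump (r = 0.95). It ran closely with the mean of the astrocyte list (r = 0.97, 7 of 10 genes tested), whose most abundant genes were Gja1 and Aldoc. With that list Slc1a3 had an r of 0.68, Aqp4 of 0.61, Kcnj10 of 0.42 and Gfap of 0.32. Gja1, the gap junction protein connexin 43, was at 190.3 ± 24.9 CPM on the left and 158 ± 44.6 CPM on the right, and Aldoc, an aldolase, at 66.8 ± 8.43 and 61.2 ± 21.9 CPM (SD, n = 5 each). Glul and Slc1a3, the enzyme and the transporter of the glutamate cycle, had an r of 0.75.

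S100b encodes a calcium-binding protein of astrocytes, Schwann cells and melanocytes (chr10:76253853-76261159, plus strand). It was at 64.3 to 84.6 CPM in left eyes (median 72.3 CPM) and 65.2 to 87.6 CPM in right eyes (median 81.0 CPM), and the sides overlapped. Its log2 difference of 0.08 ± 0.09 (SE, 95% interval -0.13 to 0.29) was the only estimate of the 8 above 0 with all animals in (limma adjusted p = 0.9998). Without animal 65 it was -0.0100, and without animal 66 those of Glul (0.015) and Apoe (0.032) were above 0 as well. Over the libraries S100b ran against Aqp4 (r = -0.61), Slc1a3 (r = -0.50) and the rod list (r = -0.77). It ran with the lists of pigment epithelium (r = 0.85), macrophages (r = 0.77), melanocytes (r = 0.70) and choroidal endothelium (r = 0.70), and hardly with Schwann cells (r = 0.15). Its closest genes were Sorbs3, an adapter of cell adhesions (r = 0.98), Smpdl3a (r = 0.96) and Zmynd15 (r = 0.95). S100b overlaps Dip2a on the opposite strand, at 28.6 to 33.2 CPM, and whether counting used the strand was not stated.

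Apoe encodes apolipoprotein E, the lipid carrier that glia, pigment epithelium and macrophages secrete (chr7:19696109-19699188, minus strand). It was at 845 to 1051 CPM in left eyes (median 971 CPM) and 751 to 1091 CPM in right eyes (median 999 CPM). The right eye was higher in 3 of 5 animals, and the sides overlapped. Its log2 difference was -0.02 ± 0.08 (SE, 95% interval -0.21 to 0.16, limma adjusted p = 0.9998). Apoe was most like Tmem176b, a membrane protein of myeloid cells (r = 0.97), Pbx2, a homeodomain factor (r = 0.96), and Bmp2, a bone morphogenetic protein (r = 0.95). Among the marker lists it was closest by Pearson's r to melanocytes (r = 0.66) and macrophages (r = 0.57). By Spearman's rank correlation it was closest to the Müller glia list (0.60, with a Pearson's r of 0.46), before melanocytes (0.49). With Gfap, Apoe had an r of -0.20.

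**Figure D4:**
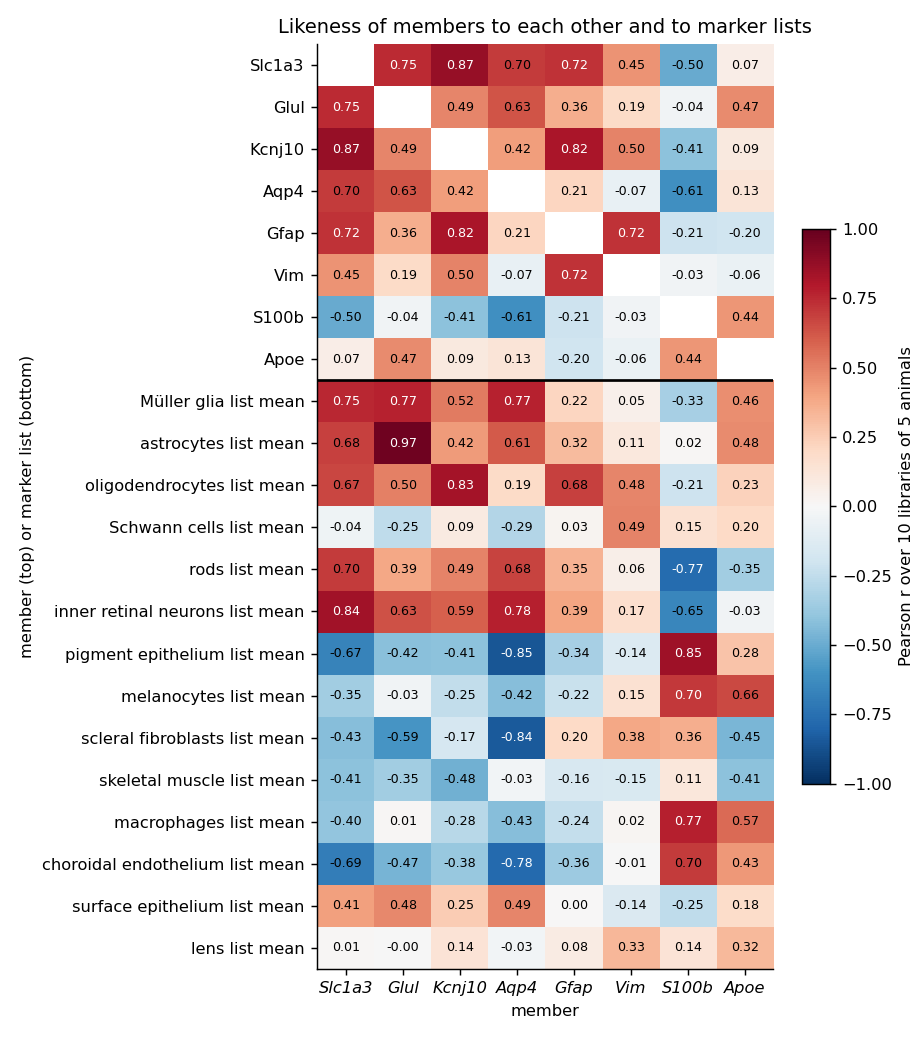
Pearson's r of log2(CPM + pseudocount) over the 10 libraries between the 8 glial genes (columns) and each of them (upper rows) or the mean of each marker list (lower rows), on a colour scale from -1 (blue) to 1 (red). Slc1a3, Kcnj10 and Gfap form a red block (r = 0.72 to 0.87), and S100b is blue against Aqp4 (r = -0.61) and Slc1a3 (r = -0.50).

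Of the 28 pairs among the 8 genes, 5 had an r over 0.7, and 9 had an r below 0. The 5 pairs were Slc1a3 with Kcnj10, Glul and Gfap, and Gfap with Kcnj10 and Vim. No pair among Apoe, S100b, Vim and Glul reached that level.

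The comparison of right with left eyes asked which genes differed between the fellow eyes of an animal. As the labels do not give the lens side, it does not compare lens-treated with untreated eyes, and its result says nothing of a lens effect. With each animal as a block in limma, 0 of the 8 genes passed an adjusted p of 0.05, as did 0% of the 15414 genes tested. At an unadjusted p under 0.05 it was 1 of 8, against 2.79% of all genes. None of the 8 had the same direction in 5 of 5 animals (4.44% of all genes). Slc1a3 and Vim were lower in the right eye in 4 of 5 animals, 2 of 8 against 21.6% of all genes lower in at least 4, and none of the 8 had left and right libraries that did not overlap (0.214% of all genes). The estimate was lower in the right eye for 7 of 8, with a median of -0.20 on the log2 scale. Over all genes 54.0% were lower, with a median of -0.01. The 7 are not separate pieces of evidence, because they were measured in the same libraries. The same fit asked whether fellow eyes were more alike than eyes of different animals. By limma's F test of the animal terms 0 of the 8 passed (smallest adjusted p = 0.722, Apoe), against 0.0843% of all genes (13 genes). At an unadjusted p under 0.05 it was also 0 of 8, against 7.22% of all genes.

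**Figure D5:**
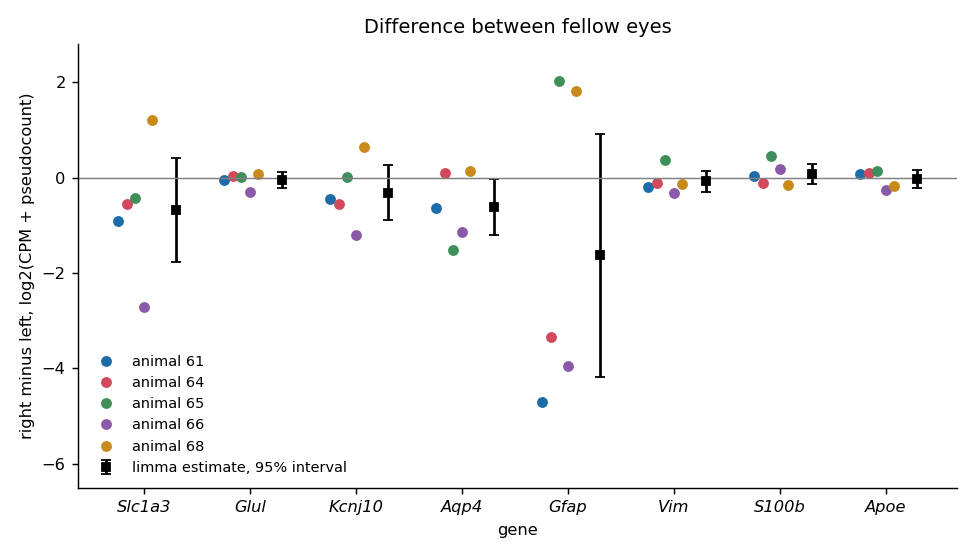
Right minus left difference in log2(CPM + pseudocount) for each animal (coloured points) and the limma estimate with its 95% interval (black squares and bars) for each of the 8 genes (horizontal axis). The interval is widest for Gfap (-4.19 to 0.92) and only that of Aqp4 (upper end -0.03) leaves out 0.

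Other genes of the pathways in which the 8 take part were read from 6 lists of 62 genes, 53 of which were tested. None passed between the sides (0% of all genes), and 6 of 53 had an unadjusted p under 0.05 in limma, against 2.79% of all genes. The directions given next compare with 54.0% of all genes lower in the right eye, and genes of a list share their libraries. Marker lists of other cells were one-sided too: 8 of 8 surface epithelium genes were lower, and 9 of 9 pigment epithelium and 10 of 10 lens genes higher. In glutamate and glutamine handling 5 of 9 tested genes were higher and 4 lower in the right eye (median 0.06 on the log2 scale). Slc1a1, a neuronal glutamate transporter, was its most abundant gene with 157 ± 8.66 CPM on the left and 179.5 ± 30.8 CPM on the right, followed by the amino acid transporter Slc38a2 at 117 ± 12.03 and 111 ± 8.86 CPM. In potassium and water handling 8 of 10 were lower (median -0.10). Aqp1, a water channel not typical of glia, was at 145 ± 22.1 CPM on the left and 134 ± 10.4 CPM on the right (SD, n = 5 each).

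Among intermediate filament partners 6 of 6 tested genes had a lower estimate in the right eye (median -0.07). The linker Plec was at 201 ± 26.8 CPM on the left and 180.3 ± 18.9 CPM on the right, and the muscle filament Des at 37.7 ± 15.6 and 35.8 ± 10.8 CPM. In lipoprotein handling 6 of 10 were higher (median 0.01). Lrp1, a receptor for Apoe, was at 1025 ± 117 and 1038 ± 128 CPM, and Clu, an apolipoprotein also known as clusterin, at 597 ± 52.9 and 642 ± 89.2 CPM. In the S100 family and its receptor 6 of 8 were lower (median -0.22), with S100a1 at 96.3 ± 5.68 and 103 ± 16.4 CPM and S100a6 at 36.6 ± 8.49 and 25.1 ± 6.74 CPM (unadjusted p = 0.0311 and adjusted p = 0.9998 in limma). In the list of reactive gliosis, the response of glia to injury, 8 of 11 were lower (median -0.08). The acute-phase gene Cp was at 88.3 ± 29.0 and 67.6 ± 16.9 CPM, and Osmr, the oncostatin M receptor, at 67.6 ± 2.23 and 72.4 ± 10.6 CPM. The gliosis list summed to 322 to 399 CPM on the left and 280 to 384 CPM on the right. Its sum was highest in the left eye of animal 66 and lowest, at 280 CPM, in the right eye of animal 68, the second highest library for Gfap. In the right eye of animal 61, the lowest library for Gfap, the sum was 358 CPM. Of its further genes, Lcn2 was at 0.103 to 1.49 CPM, and Edn2 was listed at 0 in 7 libraries and at 0.0838 CPM at most. The rest of the list is not given here, and gliosis was not tested.

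Single genes of the astrocyte and oligodendrocyte lists were also read, chosen after their values were seen. Of these lists, 7 of 10 astrocyte genes and 6 of 10 oligodendrocyte genes passed the filter on low values. The low genes named next therefore do not stand for the whole lists. Pax2, a transcription factor of optic nerve head astrocytes, was at 3 implied reads or fewer in 8 of 10 libraries and at 0.120 CPM at most, in the left eye of animal 66. Ntsr2, a receptor of astrocytes, was at or under that floor in 9 of 10. Among oligodendrocyte genes, Opalin was at or under it in 8 and Hapln2 in 7 libraries. The left eye of animal 66 stood apart for 3 genes of this list, Mobp, Mag and Mog. There Mobp, a protein of central myelin, was at 29.3 CPM, against 0.287 to 2.07 CPM in the other 9 libraries. Mag, a myelin glycoprotein, was at 5.55 CPM there against 0.488 to 1.01 CPM elsewhere. Mog, a marker of mature oligodendrocytes, was at 0.747 CPM there and at 0.0718 CPM or less elsewhere. The same library had the highest Gfap, Slc1a3 and Kcnj10. Mobp was next highest in the right eye of animal 68 (2.07 CPM) and the left eye of animal 64 (1.92 CPM), the libraries next below it for Gfap too (20.3 and 18.4 CPM), and at 0.703 CPM or less in the other 7. Mag did not follow that order, with its lowest value of 0.488 CPM in the right eye of animal 68. The list as a whole summed to 118 to 166 CPM on the left and 124 to 168 CPM on the right. It was highest in the right eye of animal 61 (168 CPM), the lowest library for Gfap. Ermn, the most abundant gene of the list before Aspa, alone held 101 to 152 CPM and was not highest in the left eye of animal 66. The other genes of the list are not given here.

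Markers of other cells moved between libraries as follows. The Müller glia list, whose most abundant genes Rlbp1 (389 ± 20.3 CPM on the left and 447 ± 68.8 CPM on the right) and Dkk3 (391 ± 49.5 and 342 ± 70.5 CPM) are also active in pigment epithelium or elsewhere, summed to 955 to 1089 CPM on the left and 952 to 1189 CPM on the right. Its gene Sox2, a transcription factor of Müller glia and astrocytes, was at 0.160 to 0.942 CPM, and Rax, another retinal factor, at 2.31 to 10.4 CPM. The astrocyte list summed to 293 to 380 CPM on the left and 228 to 407 CPM on the right, and the Schwann cell list (led by Cdh19 and Sox10) to 78.5 to 81.0 and 71.7 to 99.0 CPM. Inner retinal neurons (led by Slc6a9 and Prkca) summed to 120 to 150.0 CPM on the left and 124 to 156 CPM on the right, melanocytes (Dct and Tyrp1) to 3791 to 4395 and 3397 to 4533 CPM, and macrophages (Csf1r and Mrc1) to 186 to 203 and 185 to 218 CPM. Choroidal endothelium (Kdr and Emcn) summed to 311 to 336 CPM on the left and 281 to 382 CPM on the right. Surface epithelium (led by Aldh3a1 and Krt15, 272 to 863 CPM on the left and 114 to 660 CPM on the right) and lens (led by Cryaa and Cryba1, 93.0 to 364 and 113 to 840 CPM) were more variable. In the 14 marker lists 0 of 115 tested genes passed between the sides in limma (0% of all genes), and 1 of 115 had an unadjusted p under 0.05, against 2.79% of all genes. The part of these cells in the levels of the 8 genes was not tested.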

How the data were processed

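Total RNA of the posterior eye wall was sequenced after ribosomal RNA depletion with a stranded kit, per the labels' protocols, which speak of retinae at extraction although the tissue is labelled RPE/choroid/sclera. The authors deposited normalized values that behave as CPM plus 0.0001, and this offset was taken off. STAR, Partek and GRCm38 (mm10) are named per the submitters' processing notes; no version, annotation or strand setting is given in the sources used here. Of 25737 genes matched to GENCODE M21, 99.3% of starts and 99.3% of ends (deposited stop minus 1) were equal. Listed genes summed to 42.7% to 47.1% of each CPM total. In each library 88.9% to 89.8% of low values were whole multiples of a step (tolerance 0.05), which gave the implied depth but not whole reads for every gene. Implied reads and the floor of 3 reads cover counting error only.

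Values were tested as log2(CPM + 0.230), which understates changes of low genes, for the 15414 genes whose mean reached 1 CPM. Tests used limma 3.58.1 (R 4.3.3; intensity trend, terms for animal and side, 4 residual degrees of freedom, Benjamini-Hochberg adjustment over all genes tested), tested on simulated data. Apart from planted changes the simulated libraries varied little, so they say nothing of power for genes as variable as Gfap. Titles share animal numbers and the protocol compares fellow eyes, hence the animal block. The deviations of fellow eyes from their side means correlated over 0.1 in 2 of 5 animals. All 45 pairs of libraries differed beyond sampling noise. Alternatives changed the block, pseudocount, filter, scaling, weights and moderation, or left out animals and libraries.

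The members, the 20 lists and the tests were chosen with earlier results of these data known. Named were the 8 genes, the 3 most similar genes of each (predicted loci left out), and for each list the genes past the threshold (none) and the 2 most abundant, some of which are not reported here. Further list genes, and the levels of the similar genes in single libraries, were chosen after their values were seen. Promoter windows come from RefSeq (GRCm38.p6), where 7 of 8 genes matched.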

Additional observations from a re-analysis of the deposited data

How the results depend on the processing

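In all 25 alternatives 0 genes passed between the sides. Leaving out a library gave the same side estimates as leaving out its animal, because the block drops an unpaired eye, so these are not separate checks. The test between animals was run in 23 of the 25 alternatives (22 for Kcnj10), since it needs the animal terms, and 0 of the 8 genes passed there. Without the replicate block, 0 genes passed as well (adjusted p of Gfap 0.9998 in limma), and 0 with a random effect for the animal. As each animal gave both eyes, the block left every estimate as it was and changed no call. Genes that differed between animals numbered 13 as reported, 20 with array weights, 18 with quantile normalization or robust moderation, 15 with median-of-ratios scaling, 11 with the 5 CPM filter and 5 to 10 when an animal or a library was left out, where fewer samples were tested. Estimates near 0 changed sign: Apoe right minus left was at 0.0015 with array weights. Without 1 replicate (an animal or a library), Apoe ran from -0.064 to 0.032, Glul from -0.079 to 0.015 and S100b from -0.0100 to 0.14. The estimates of Gfap ran from -2.54 (without animal 65) to -0.86 (without animal 61), those of Slc1a3 from -1.15 (without animal 68) to -0.17 (without animal 66), those of Kcnj10 from -0.55 to -0.09 and those of Aqp4 from -0.80 to -0.39, and none of these changed sign. Array weights gave -2.55 for Gfap. Kcnj10 has no value with the filter of 5 CPM, as its mean is lower. Depth limits what can be said of genes near 3 reads, such as Pax2 and Opalin.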
